A study of Homo sapiens with 8 samples.

Results

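The apolipoprotein L (APOL) genes form a small family on human chromosome 22. The 5 genes APOL1, APOL2, APOL3, APOL4 and APOL6 were taken by name from a table of 23393 genes, and the family was chosen on the counts of APOL3, which were 0 in arginine-starved parental cells and high in starved ρ0 cells. The values of APOL3 are therefore given as a description, with no test, while APOL1, APOL2, APOL4 and APOL6 entered by their name. Of the 5 genes, 4 passed the filter on low counts, which kept 15262 genes of the table. APOL4 did not pass it and is described by its counts. A sixth gene of the family, APOL5, was listed in the table too and had at most 1 count in any library.

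The libraries were made from MDA-MB-231, a line of human triple-negative breast cancer cells with a mesenchymal appearance. The parental cells and a ρ0 clone of them, number 27, were each sequenced in full medium and after 48 h with 0.3 µg/mL arginine deiminase (ADI), an enzyme that breaks down arginine in the medium. The labels name ADI, whereas the paper describes the starved cells as kept in arginine-starved medium and does not name the enzyme for this experiment, so the treatment is given here as labelled. There were 4 groups of 2 libraries, 8 in all. ρ0 cells have lost their mitochondrial DNA, and the design asks how cells with and without it respond when arginine is withdrawn. Per the study's methods, the ρ0 line was kept in medium with sodium pyruvate, uridine and ethidium bromide, none of which was named for the parental cells. A difference between the lines therefore cannot be told apart from a difference of 1 clone, or of its medium. The labels do not say whether the 2 libraries of a group came from separate cultures, so the p-values measure the spread between these libraries, which may be technical.

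APOL proteins share a helical, membrane-active domain with an amphipathic character. Most family members lack a secretion signal and stay inside the cell, whereas APOL1 is also secreted, travels on high-density lipoprotein and forms the pore that kills African trypanosomes. APOL3 acts in human cells against bacteria in the cytosol, whose membranes it dissolves after guanylate-binding proteins such as GBP1 have coated them, and it also takes part in lipid signalling at the Golgi through NCS1 and PI4KB. APOL6 has been studied as a BH3-like inducer of cell death. Several of the genes are induced by interferon and by tumour necrosis factor (TNF), which act through the JAK kinases, the IRF factors and NF-κB.

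The genes stand close together and are similar in sequence, which bears on how reads were shared out among them. In the RefSeq order of protein-coding genes on chromosome 22, APOL6 and APOL5 stood side by side, RBFOX2 came next, and APOL3, APOL4, APOL2 and APOL1 followed in that order before MYH9. The coding sequences of APOL1 and APOL2 were identical at 80.0% of aligned bases, and those of APOL3 and APOL4 at 78.7%. APOL6 was further off, with 62.3% to 65.4% identity to the others. Below is a window of 60 bases from the coding sequence of each gene (GENCODE release 29 transcripts, 5′ to 3′). It was picked as the stretch of APOL3 that the other genes matched best without gaps. The differences in it are therefore not typical of the whole genes. Capitals mark bases that differ from APOL3. The window covers coding positions 308 to 367 of APOL3, 320 to 379 of APOL1, 431 to 490 of APOL2, 176 to 235 of APOL4 and 8 to 67 of APOL6.
APOL3: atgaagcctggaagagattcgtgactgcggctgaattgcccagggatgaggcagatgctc
APOL4: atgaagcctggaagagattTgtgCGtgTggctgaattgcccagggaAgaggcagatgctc
APOL2: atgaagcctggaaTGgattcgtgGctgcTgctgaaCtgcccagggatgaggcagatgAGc
APOL1: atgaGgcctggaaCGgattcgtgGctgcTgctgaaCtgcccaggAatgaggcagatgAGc
APOL6: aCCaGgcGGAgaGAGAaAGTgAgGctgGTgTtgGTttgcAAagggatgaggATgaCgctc
APOL4 differed from APOL3 at 5 of the 60 bases, APOL2 at 7, APOL1 at 9 and APOL6 at 25. Over whole transcripts, exact runs of 50 bases were rarely shared within the family: 0.608% of those of APOL1, 0.383% of those of APOL2 and 0.140% of those of APOL3 also occurred in another APOL gene, and none of those of APOL4 or APOL6 did. The shared runs were 14 between APOL1 and APOL2 and 9 between APOL1 and APOL3. The length of the reads and the handling of reads with several matches are not given in the sources used here, so counts of APOL1 may hold some reads of APOL2 or APOL3, and the reverse.

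Total counts ran from 25259503 to 31022155 per library. The 2 ρ0 control libraries stood apart from the rest in how far they differed: their coefficient of variation beyond counting error was 25.1% over genes, against 1.84% to 5.18% in the other 3 pairs. Defining markers of MDA-MB-231 were present, with vimentin (VIM) at 522 CPM (counts scaled to a common library total) or more in every library. The ρ0 libraries also held transcripts of the luminal epithelial list that parental libraries lacked. E-cadherin (CDH1) had at most 2 counts in any parental library and 104 to 457 in the ρ0 libraries, while FOXA1 had 212 to 277 counts in parental and 1 to 4 in ρ0 libraries. Of the 3 luminal genes that would pass the filter in each line alone, 3 were higher in ρ0 than in parental controls. The summed level of the luminal list was 56.8 to 59.4 CPM in parental controls, 30.4 to 31.5 in starved parental cells, 201 to 203 in ρ0 controls and 84.6 to 101 in starved ρ0 cells. The summed level of the leukocyte list was 99.9 to 100.3, 51.5 to 54.3, 108 to 124 and 90.5 to 95.4 CPM in the same order, with CD3E at 0 in every library. That of the endothelial list was 13.8 to 14.8, 16.9 to 18.5, 9.004 to 9.436 and 20.9 CPM, most of it from KDR, which rose in starved parental cells, while the other 3 (PECAM1, VWF and CDH5) fell there to at most 2 counts. The part of these lists in the APOL results was not tested. As a check of the starvation itself, 6 of 9 targets of the stress factor ATF4 rose and 1 (PHGDH) fell in parental cells, and 9 of 9 rose in ρ0 cells, where 30.4% and 19.2% of all genes rose.

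**Figure D1:**
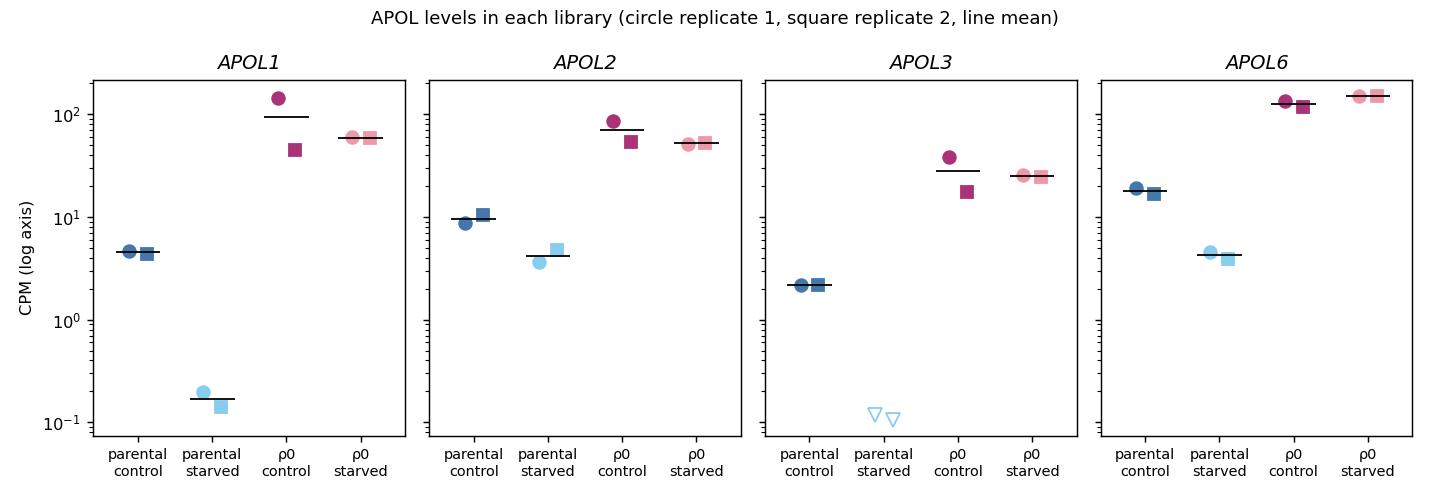
Level of APOL1, APOL2, APOL3 and APOL6 in each library, in CPM on a log axis; circles are replicate 1, squares replicate 2 and lines the mean of a group, and open triangles mark libraries with 0 counts, drawn at the level of 3 counts. All 4 genes were lowest in starved parental cells and higher in every ρ0 library than in any parental one, and APOL1 and APOL3 were spread widely between the 2 ρ0 controls.

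APOL transcripts were scarce in parental cells and fell further on starvation. APOL3 had 73 and 62 counts in the 2 parental controls and 0 and 0 in the 2 starved parental libraries. Its level was 2.17 ± 0.0248 CPM (SD, n = 2) in the controls. With the floor set at 3 counts per library (0.113 CPM on average in the starved pair), the level after starvation was at least 19.3-fold lower. This is the pattern that chose the family. In bulk RNA, fewer cells that express a gene and less of its RNA per cell cannot be told apart.

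APOL1, the secreted trypanolytic member, had 157 and 126 counts in parental controls and 5 and 4 after starvation. Both starved libraries were far below both controls. Its level went from 4.54 ± 0.234 to 0.170 ± 0.0397 CPM (SD, n = 2 each), or -4.72 ± 0.92 on the log2 scale (± standard error; adjusted p = 0.0027 by edgeR's quasi-likelihood test with Benjamini-Hochberg adjustment over all tested genes). The limma-voom test, run as an alternative, gave an adjusted p of 0.063 for this gene. Both fits estimate the spread of a gene over all 8 libraries, the ρ0 controls among them. With only the parental groups in the edgeR fit, the log2 fold change was -4.69 (standard error 0.28).

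APOL6 had 639 and 486 counts in parental controls and 115 and 110 after starvation, so its groups did not overlap. It fell from 18.02 ± 1.61 to 4.23 ± 0.463 CPM (SD, n = 2 each), with a log2 fold change of -2.09 (standard error 0.13, edgeR adjusted p = 1.6e-05). APOL2, an intracellular member close to APOL1 in sequence, had 292 and 302 counts in controls and 92 and 134 after starvation. It fell the least of the 3 tested, from 9.62 ± 1.23 to 4.20 ± 0.783 CPM (SD, n = 2 each), with a log2 fold change of -1.19 (standard error 0.26, edgeR adjusted p = 0.0044). APOL4 had 1 and 0 counts in the controls and 0 and 0 in the starved libraries, too few to show a change at this depth. Thus 3 of the 3 members tested without a part in the choice were called lower, where 35.5% of all genes tested were called lower.

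In ρ0 cells no tested APOL gene passed the threshold on the same treatment. APOL3 had 1111 and 540 counts in ρ0 controls and 751 and 587 in starved ρ0 cells. Both starved values lay between the 2 controls. The levels were 27.95 ± 14.97 and 24.8 ± 0.755 CPM (SD, n = 2 each).

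APOL1 had 4160 and 1391 counts in ρ0 controls and 1776 and 1414 after starvation, and in CPM (144 and 44.7 against 60.02 and 58.57) both starved values again lay between the controls. Its log2 fold change was -0.67 (standard error 0.44), with a 95% interval from -1.70 to 0.36 (edgeR adjusted p = 0.26). APOL2 had 2501 and 1680 counts in ρ0 controls against 1522 and 1266, or 86.8 and 54.0 CPM against 51.4 and 52.4. Its log2 fold change was -0.44, with a 95% interval from -0.95 to 0.08 (edgeR adjusted p = 0.15). APOL6 had 3914 and 3616 counts in controls and 4452 and 3638 after starvation. In CPM both starved values (150 and 151) were above both controls (136 and 116), and the log2 fold change was 0.26 with a 95% interval from 0.0023 to 0.51 (edgeR adjusted p = 0.097). APOL4 had 16 and 3 counts in ρ0 controls and 1 and 4 after starvation.

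Of the 3 members tested in ρ0 cells, 0 were called by edgeR, where 41.3% of all genes were called in either direction. At an unadjusted p under 0.05, edgeR, DESeq2 and limma-voom each gave 1 of the 3, and at the adjusted threshold DESeq2 and limma-voom gave 0. This result rested on the ρ0 controls, which differed from each other. Without ρ0 control replicate 1, APOL1 was called higher after starvation (log2 fold change 0.41) and APOL6 too (0.37). Without ρ0 control replicate 2, APOL1 and APOL2 were called lower (-1.27 and -0.73) and APOL6 higher (0.16). For APOL3 the fitted difference was 0.52 without the first and -0.62 without the second. Whether starvation moved APOL1 or APOL3 in ρ0 cells, and in which direction, thus depended on which control library was used.

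The difference between the 2 starvation responses was tested as an interaction, ρ0 minus parental. It was 2.35 for APOL6 on the log2 scale (standard error 0.17, edgeR adjusted p = 2.3e-04), and with each of the 8 libraries left out in turn it ran from 2.22 to 2.48. It was 4.05 for APOL1 (standard error 1.09, edgeR adjusted p = 0.022). For APOL1 the call was lost with limma-voom (adjusted p = 0.12), and in edgeR without parental control replicate 1 (adjusted p = 0.063), parental control replicate 2 (0.058), parental starved replicate 1 (0.075), parental starved replicate 2 (0.093) or ρ0 starved replicate 1 (0.053). It was 0.75 for APOL2, with a 95% interval from -0.036 to 1.54 (edgeR adjusted p = 0.11), and became a call without ρ0 control replicate 1 (1.13) or replicate 2 (0.41). So 2 of 3 members were called higher, where 21.6% of all genes were.

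**Figure D2:**
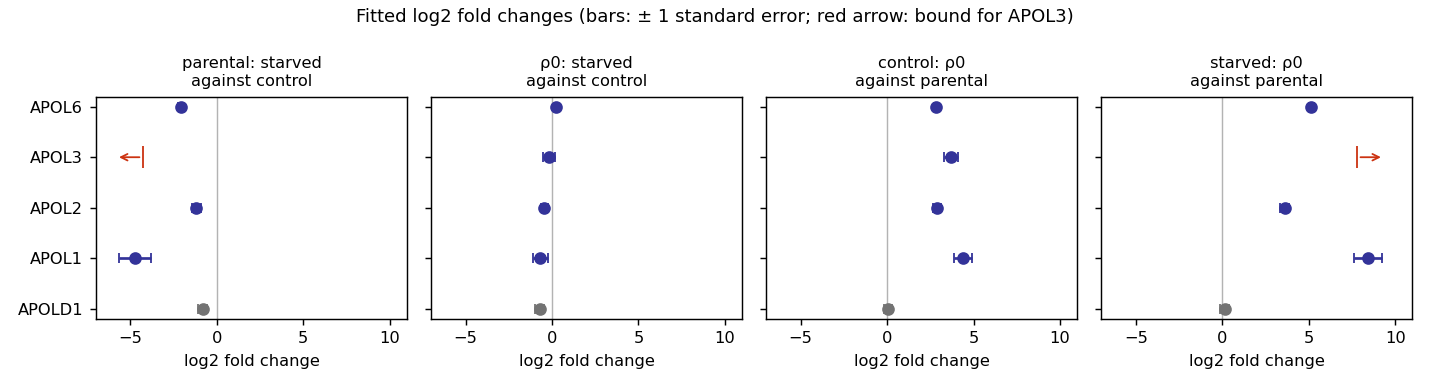
Fitted log2 fold changes of the APOL genes and of the related gene APOLD1 in 4 comparisons, with bars of 1 standard error; red arrows start at the bound for APOL3 where the starved parental libraries held 0 counts. The 4 APOL genes lay to the left of 0 in starved parental cells, near 0 in starved ρ0 cells and to the right of 0 in ρ0 against parental cells, while APOLD1 was near 0 in both comparisons of the lines.

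The lines already differed in full medium. The 3 members tested without a part in the choice were all called higher in ρ0 than in parental controls. Of all genes tested, 30.5% were. APOL1 was 20.8-fold higher by mean CPM, with a log2 fold change of 4.38 (standard error 0.52, edgeR adjusted p = 2.6e-04). APOL3 was 12.9-fold higher, with a log2 fold change of 3.68, given with no test because its values chose the family. The fold changes between the controls share these libraries with the starvation comparisons and use no starved library. APOL2 was 7.32-fold higher and APOL6 6.99-fold, with log2 fold changes of 2.87 and 2.80 and standard errors of 0.24 and 0.12 (edgeR adjusted p = 4.6e-05 and 2.7e-06). The lowest ρ0 control count of APOL2, 1680, was over the highest parental one, 302, and the same order held for APOL1, APOL3 and APOL6.

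The size of the difference between the lines depended on the ρ0 control used, but the calls did not. Without ρ0 control replicate 1 the log2 fold changes were 3.30 for APOL1, 2.50 for APOL2, 2.997 for APOL3 and 2.69 for APOL6. Without replicate 2 they were 5.04, 3.23, 4.20 and 2.96 in the same order. APOL4, at 1 and 0 counts in parental controls and 16 and 3 in ρ0 controls, had only 1 library with more than a few counts.

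The 2 lines were also compared after starvation. APOL3 was at least 221-fold higher in starved ρ0 than in starved parental cells, again with the floor of 3 counts and with no test. APOL6 was higher by 5.16 on the log2 scale (standard error 0.14, edgeR adjusted p = 4.3e-07), APOL1 by 8.42 (standard error 0.79, edgeR adjusted p = 6.7e-05) and APOL2 by 3.62 (standard error 0.26, edgeR adjusted p = 1.8e-05). The 3 members tested were thus all called higher, where 32.9% of all genes were. The fold changes of this comparison do not use the ρ0 controls. Its standard errors and p-values do, since the fit estimates the spread of a gene over all 8 libraries. The 2 starved ρ0 libraries agreed closely, at 60.02 and 58.57 CPM for APOL1, 51.4 and 52.4 for APOL2, 25.4 and 24.3 for APOL3 and 150 and 151 for APOL6.

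Levels were compared between genes as CPM per kilobase of the longest coding transcript, from 2685 bases for APOL2 to 10121 for APOL6. In parental controls the order was APOL2 (3.58 ± 0.457 CPM per kilobase; SD, n = 2), APOL6 (1.78 ± 0.159), APOL1 (1.51 ± 0.0779) and APOL3 (0.599 ± 0.00684), and the values of these 4 genes did not overlap. In starved parental cells the order was APOL2 (1.56), APOL6 (0.418) and APOL1 (0.0566), with APOL3 at 0 counts. In ρ0 controls APOL1 (31.5 ± 23.5) and APOL2 (26.2 ± 8.62) could not be ordered: APOL1 was above APOL2 in replicate 1 (48.1 against 32.3) and below it in replicate 2 (14.9 against 20.1). APOL6 (12.5 ± 1.36) and APOL3 (7.71 ± 4.13) were lower. In starved ρ0 cells APOL1 (19.8 ± 0.343) and APOL2 (19.3 ± 0.263) were level within their spread, followed by APOL6 (14.9 ± 0.0154) and APOL3 (6.85 ± 0.208). The transcript lengths are those of GENCODE and not of the cells, so that a shorter isoform in use would raise a gene's value.

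The difference between the 2 ρ0 controls was unequal among members. The CPM of replicate 1 over replicate 2 was 3.23 for APOL1, 2.22 for APOL3, 1.61 for APOL2 and 1.17 for APOL6, and 1.71%, 5.90%, 19.2% and 63.4% of tested genes differed by more. The median ratio over all tested genes was 0.994. Genes induced by interferon went the same way: all 31 tested genes of that list were higher in replicate 1, 19 of them over 2-fold, with a median ratio of 2.48. Their summed level was 3053 CPM in replicate 1 and 1100 in replicate 2, and 1588 and 1580 in the 2 starved ρ0 libraries. It was 568 and 591 in parental controls and 293 and 301 in starved parental cells.

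The list of interferon-induced genes held 33 genes, 31 of them tested. In starved parental cells 20 fell, where 35.5% of all genes did, and 1 rose (IFIT5, 0.36 on the log2 scale, named after its value was seen), with a median log2 fold change of -3.33 beside -0.07 over all genes. Among the 10 not called was ISG15, also named after its value was seen. It had 32.0 and 31.6 CPM in parental controls and 55.6 and 56.6 after starvation. The spread in the fit includes its ρ0 controls, at 413 and 108 CPM. XAF1, a pro-apoptotic interferon target, had 21 and 29 counts in parental controls and 0 and 0 after starvation, at least 7.27-fold lower with the same floor. GBP2, a guanylate-binding protein, had 1338 and 1239 counts in controls and 8 and 12 after starvation. OAS1, which senses double-stranded RNA, had 480 and 466 counts in controls and 3 and 7 after starvation. GBP2 and OAS1 were thus expressed well in parental controls, unlike APOL3.

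Of the 31 genes, 7 passed the filter on low counts only through the ρ0 libraries (GBP4, GBP5, CXCL11, IFI27, RSAD2, TRIM22 and BST2) and so had to be higher there. Of the other 24, which would pass it in each line alone, 14 were higher in ρ0 than in parental controls, where 30.5% of all genes were, and 1 was lower (IFIT5, -0.35). The largest differences were in 3 of the 7, given here as counts with no support drawn from them: BST2, which tethers budding viruses, RSAD2, the antiviral enzyme viperin, and IFI27. BST2 went from 8 and 5 counts in parental to 1927 and 839 in ρ0 controls, RSAD2 from 9 and 5 to 2036 and 339, and IFI27 from 9 and 10 to 1885 and 1096. GBP2 and OAS1 were not called: their log2 fold changes were 0.02 (edgeR adjusted p = 0.96) and -0.15 (0.85). Between the starved lines 23 of the 24 were higher in ρ0, where 32.9% of all genes were, and 1 was lower, again IFIT5.

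In ρ0 cells starvation lowered 8 of the 31 genes, a share near the 22.1% of all genes that fell there. These numbers moved with the control library used: without ρ0 control replicate 1, 14 rose and 8 fell, and without replicate 2, 1 rose and 29 fell. The interaction was called higher for 14 of the 24 genes that would pass the filter in each line alone, where 21.6% of all genes were. That number changed as well with the control library left out.

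**Figure D3:**
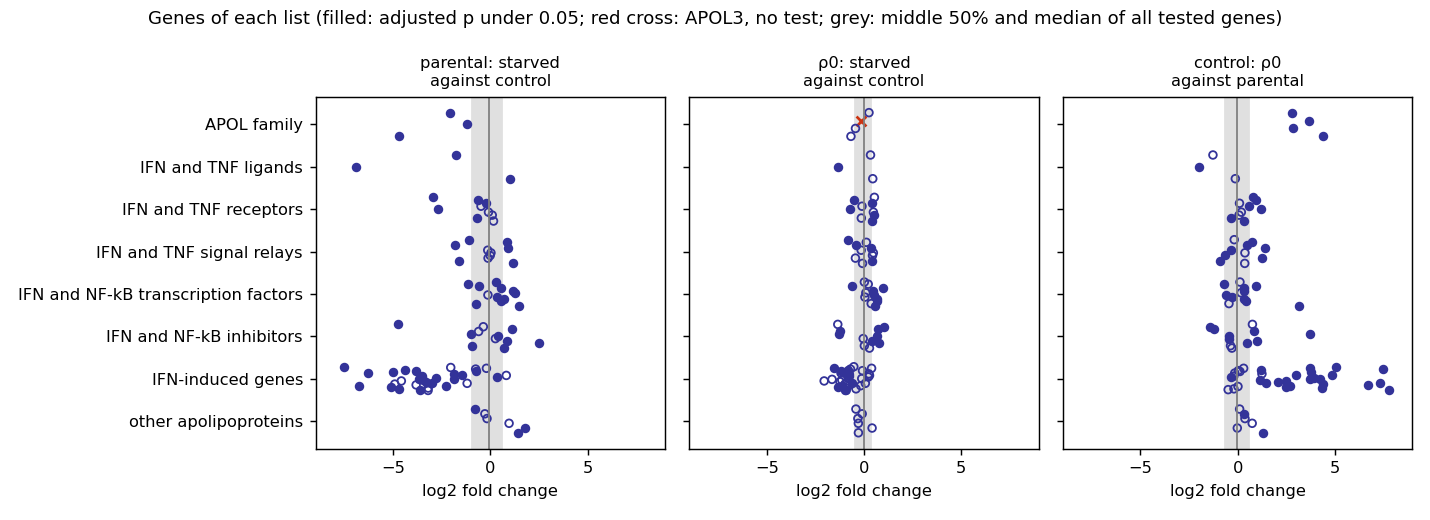
Log2 fold changes of the genes of 8 lists in 3 comparisons. Filled points passed an adjusted p of 0.05 and open points did not. Red crosses are APOL3 with no test (left out in starved parental cells, where it had 0 counts). In the ρ0 controls APOL3 is drawn as a filled point, with no support drawn from it. The grey band and line are the middle 50% and the median of all tested genes. APOL genes and interferon-induced genes spread to the left in starved parental cells and to the right in ρ0 controls, while receptors, relays and transcription factors stayed closer to the band; points of genes with 0 counts in a group depend on the prior count of the fit.

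Ligands of the pathways were mostly undetected. Of the 10 interferon and TNF ligands, IFNA1, IFNB1, IFNE and IFNG were at 0 counts in all 8 libraries. IFNL1, named after its value was seen, had 19 and 1 counts in ρ0 controls and 7 and 5 in starved ρ0 cells. It had 0 and 0 counts in parental controls and 0 and 1 after starvation, and did not pass the filter. Of the 10 ligands, 3 passed it. Of these 3, 2 would pass it in each line alone. In starved parental cells 1 of the 2 fell and 1 rose, where 35.5% and 30.4% of all genes did. Lymphotoxin beta (LTB), which signals to NF-κB through its own receptor, had 313 and 419 counts in parental controls and 3 and 2 after starvation, against 82 and 98 and then 33 and 30 in ρ0 cells. TNF itself passed the filter only through the parental libraries and is given as counts. It had 18 and 15 in parental controls and 4 and 4 after starvation. LTA rose by 1.01 on the log2 scale in starved parental cells. Both were named after their values were seen. In ρ0 controls LTB was lower than in parental ones (-1.99), the opposite direction to the APOL genes.

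Of the 9 receptors, all tested, 5 fell and 4 were not called in starved parental cells, where 35.5% of all genes fell. In ρ0 controls 5 were higher and 1 lower than in parental ones, where 30.5% and 31.8% of all genes were. TNFRSF1B, the second TNF receptor, had 258 and 245 counts in parental controls and 29 and 26 after starvation (log2 fold change -2.97, standard error 0.27, edgeR adjusted p = 6.3e-05), but 498 and 344 and then 594 and 506 in ρ0 cells. IFNLR1, the receptor chain specific to type III interferon, fell from 103 and 104 counts to 14 and 13 in parental cells (log2 fold change -2.72, standard error 0.24, edgeR adjusted p = 6.0e-05). In ρ0 cells it went from 248 and 217 to 130 and 119. Of the 10 relays, 3 rose and 3 fell in starved parental cells, where 30.4% and 35.5% of all genes did. In starved ρ0 cells 2 rose and 2 fell, beside 19.2% and 22.1% of all genes. Between the controls 4 were higher and 3 lower in ρ0 cells, beside 30.5% and 31.8% of all genes. These counts are near the shares of all genes.

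Among the transcription factors 12 of 13 were tested, since IRF9 was listed at 0 in every library. In starved parental cells 8 rose and 3 fell (30.4% and 35.5% of all genes did), and in starved ρ0 cells 6 rose and 1 fell (19.2% and 22.1% of all genes). IRF1, which activates many interferon targets, rose in parental cells from 387 and 349 to 831 and 946 counts (log2 fold change 1.49, standard error 0.12, edgeR adjusted p = 3.8e-05), while the APOL genes fell there. It was higher in ρ0 than in parental controls (3371 and 2915 counts, log2 fold change 3.15). STAT2, a factor of type I interferon signalling named after its value was seen, fell by 1.17 on the log2 scale in parental cells and was 0.22 in ρ0 cells (edgeR adjusted p = 0.49). In ρ0 controls STAT2 was lower than in parental ones (-0.69).

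Of the 11 inhibitors, all tested, 5 rose and 3 fell in starved parental cells, where 30.4% and 35.5% of all genes did. In starved ρ0 cells 5 rose and 2 fell, beside 19.2% and 22.1% of all genes. Between the controls 4 were higher and 4 lower in ρ0 cells, where 30.5% and 31.8% of all genes were. Several of these counts are near the shares of all genes. NFKBIB, which holds NF-κB in the cytosol, rose from 808 and 744 to 3695 and 4004 counts in parental cells (log2 fold change 2.53, edgeR adjusted p = 1.0e-05) and by 0.79 in ρ0 cells. USP18, an interferon-induced brake on the type I receptor, had 34 and 35 counts in parental controls and 0 and 2 after starvation. PTPN6, a phosphatase that dampens JAK signalling, went from 21 and 19 counts in parental to 233 and 285 in ρ0 controls.

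Among 6 genes known as partners of APOL3, GBP1 was the only one called with a change above 2 on the log2 scale in any comparison of the 5; it also stands in the interferon list. GBP1 had 436 and 370 counts in parental controls, 11 and 9 after starvation, 2176 and 2125 in ρ0 controls and 849 and 695 in starved ρ0 cells. It fell by 5.10 in parental cells (standard error 0.16, edgeR adjusted p = 4.7e-06) and by 1.32 in ρ0 cells (standard error 0.10, edgeR adjusted p = 1.9e-04). Its 2 ρ0 controls were close, unlike those of APOL3. The Golgi partner PI4KB, named after its value was seen, fell by 0.29 and 0.48 in the same 2 comparisons. HP and HPR, partners of APOL1 in serum particles, had at most 3 counts in any library.

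Few of the other apolipoproteins were expressed. Of 18 listed, 6 were tested. In starved parental cells 2 rose (APOE by 1.80 and APOC1 by 1.40 on the log2 scale) and 1 fell (CLU, by 0.79). Of all genes, 30.4% rose and 35.5% fell there. In starved ρ0 cells APOE and APOC1 were at 0.42 and -0.29 (edgeR adjusted p = 0.31 and 0.39). These 3 were named after their values were seen. In ρ0 controls 2 were higher than in parental controls, APOC1 by 1.31 and APOOL by 0.32, where 30.5% of all genes were. APOLD1, an endothelial early-response gene with an APOL-like domain, had 224 and 163 counts in parental controls and 93 and 93 after starvation, then 224 and 151 and 107 and 98 in ρ0 cells. It fell in both lines, by 0.83 (edgeR adjusted p = 0.019) and 0.72 (0.049), and its difference between the controls was 0.03 with a 95% interval from -0.52 to 0.57.

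Genes next to the family on chromosome 22 were compared by position. Of 21 protein-coding neighbours, 10 on either side and RBFOX2 within, 15 were tested. Of these, 13 would pass the filter in each line alone, and NCF4 and LARGE only in the parental one. In starved parental cells 9 of the 13 fell and 2 rose, where 35.5% and 30.4% of all genes did. In ρ0 controls 6 of the 13 were higher and 2 lower than in parental controls, where 30.5% and 31.8% of all genes were. RBFOX2, a splicing regulator that lies between APOL5 and APOL3, fell by 0.37 on the log2 scale in starved parental cells. It was 0.04 between the controls (edgeR adjusted p = 0.70). MYH9, the myosin heavy chain gene next to APOL1, fell by 0.78 and was higher by 0.84. Both were named for their place.

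A few neighbours moved as far as the APOL genes. TIMP3, a metalloproteinase inhibitor, had 4082 and 3831 counts in parental controls, 474 and 480 after starvation and 30191 and 20722 in ρ0 controls. Myoglobin (MB), the neighbour of APOL6, had 13 and 23 counts in parental controls, 1 and 1 after starvation, and 240 and 229 in ρ0 controls. HMOX1, the heme-degrading enzyme, went the other way, from 321 and 331 to 2304 and 2631 counts in starved parental cells. NCF4 and LARGE passed the filter only through the parental libraries and are given as counts, with no support drawn from them. NCF4, a subunit of the NADPH oxidase, went from 12 and 11 counts to 0 and 0 in starved parental cells. With the floor of 3 counts this was at least 3.30-fold lower. LARGE, a glycosyltransferase, had 421 and 343 counts in parental and 2 and 9 in ρ0 controls.

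**Figure D4:**
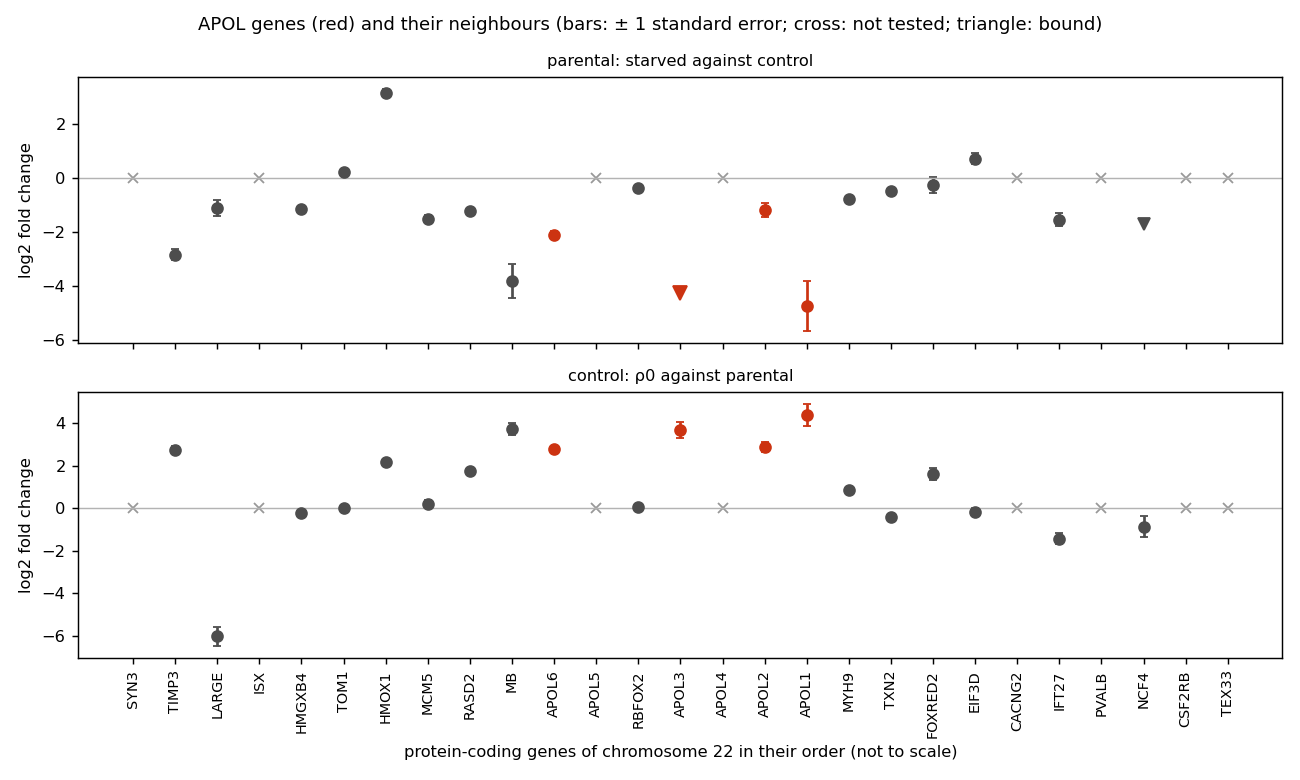
Log2 fold changes of the APOL genes (red) and their protein-coding neighbours on chromosome 22, in gene order and not to scale, for starved against control parental cells (top) and ρ0 against parental controls (bottom); bars are 1 standard error, crosses are genes not tested and triangles are bounds where the starved libraries held 0 counts. In the bottom plot the 4 APOL genes lay above RBFOX2 between them and MYH9 beside them, at changes near those of TIMP3 and MB. In the top plot APOL2 (-1.19) was the APOL gene nearest to MYH9 (-0.78). There 9 of the 13 neighbours that would pass the filter in each line alone fell.

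Over the 8 libraries, the 5 genes whose log2 CPM was most like that of APOL3 were STIM1, AP1G2, CRTAP, DPP9 and QSOX1, with Pearson r from 0.9983 to 0.9987 among 13212 genes at 1 CPM or more. These r values are a description: the 8 points are 4 groups of 2 and share the same libraries. The genes differ from APOL3 in the size of their changes. STIM1 had 56.8 ± 0.157 CPM in parental controls, 20.7 ± 0.549 after starvation, 135 ± 28.5 in ρ0 controls and 126 ± 2.13 in starved ρ0 cells (SD, n = 2 each), so that it kept its expression in starved parental cells. Within the family APOL1 came closest to APOL3 (r = 0.996, place 21), followed by APOL6 (r = 0.981, place 196) and APOL2 (r = 0.957, place 514).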

How the data were processed

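RNA-seq was done on total RNA of 8 samples, 2 per group. Per the labels, the authors processed the reads with Bowtie and Partek on genome build hg19, with no versions given; the deposited table holds raw read counts per gene symbol, with no normalization. From these counts, edgeR 4.0.16 (R 4.3.3) was used: filterByExpr, TMM scaling, and a quasi-likelihood fit with 1 mean per group over all 8 libraries, with Benjamini-Hochberg adjustment over the 15262 genes tested and calls at an adjusted p under 0.05. CPM values are scaled by TMM. DESeq2 1.42.0, limma-voom (limma 3.58.1), other scalings and filters, a replicate block and leaving out each library served as alternatives. The fit was tested on simulated counts for starved against control parental cells: of 50 genes each changed by -2, -1, 1 and 2 on the log2 scale, 84%, 72%, 62% and 98% were recovered among 15262 genes. Of the genes left unchanged, 11 were called. The unchanged genes had the same mean in all 8 libraries, so the simulation did not hold the wide differences between the groups of these data. Which list genes would pass the filter on the 4 libraries of each line alone was counted after the data were seen. A floor of 3 counts per library stands for 0; bounds and intervals from it cover counting error only.

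The members and gene lists were chosen with earlier results of these data known. All APOL genes are named; list genes could be named where called with a log2 fold change above 2 or below -2, at most 3 rises and 3 falls per list and comparison, and any other is said to be named after its value was seen. Likeness to APOL3 used log2 CPM with a prior count of 2. Gene order is from RefSeq and transcripts are from GENCODE release 29, both of a later build than the counts, so no coordinates are given. Coding sequences were aligned with Biopython 1.88.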

Additional observations from a re-analysis of the deposited data

Results flagged for a closer look

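The results below are those of the genes named in the report, picked out because the starvation response differed between the lines in the test of the interaction (ρ0 minus parental, log2 scale, edgeR adjusted p under 0.05). In the family this held for APOL1 (4.05) and APOL6 (2.35). Among interferon-induced genes it held for 14 of the 24 that would pass the filter in each line alone. All 14 were called higher, where 21.6% of all genes were. Those named are GBP1 (3.77), GBP2 (5.64), OAS1 (5.14) and XAF1 (7.02). The value of XAF1 rests on 0 counts in starved parental cells and depends on the prior count of the fit. Among ligands, receptors, factors and inhibitors the named genes were LTB (5.58), TNFRSF1B (3.51), IFNLR1 (1.97), STAT2 (1.39), IRF1 (-0.94) and NFKBIB (-1.73), IRF1 and NFKBIB having risen more in parental than in ρ0 cells. Among the other apolipoproteins it held for APOC1 (-1.68) and APOE (-1.39). Of the 13 neighbours on chromosome 22 that would pass the filter in each line alone, 5 were called higher and 2 lower. Of all genes, 21.6% and 18.8% were. The neighbours named are TIMP3 (1.70), MB (3.29), RBFOX2 (0.388) and HMOX1 (-2.44). NCF4 (5.60, with 0 counts in starved parental cells) passed the filter only through the parental libraries, and no support is drawn from it. Each of these tests uses the 2 ρ0 control libraries, whose spread was the widest of the 4 groups.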

How the results depend on the processing

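The counts of APOL members called in starved parental cells (3 of 3) and between the starved lines (3 of 3) stayed at 3 with each of the 8 libraries left out. In starved ρ0 cells the count of 0 ran from 0 to 3 with libraries left out. There, without ρ0 control replicate 1, the log2 fold changes of APOL1 and APOL3 turned to 0.41 and 0.52, and without replicate 2 they were -1.27 and -0.62. The interaction count of 2 ran from 1 to 3 with libraries left out, and was 1 with limma-voom and 1 when at least 10 counts were required in every library, a filter that removes APOL1 and APOL3. For the same reason that filter left 2 of the 3 calls in starved parental cells and between the ρ0 and parental controls. The starved parental count was also 2 with limma-voom. A fit without 1 library assumes that the lone library of its group varies like the other groups. With the replicate number as a block, the counts were 3, 0, 2 and 3 (starved parental, starved ρ0, interaction, starved lines), as without it. The numbers gave no sign of pairing: deviations of same-numbered libraries correlated at -0.045, -0.026, 0.039 and 0.0015 in the 4 comparisons. Of the members' fold changes under the alternatives, 307 kept their direction and, where tested, their call. For APOL3 with no test, this means a value within 1 standard error of the main one. Of the rest, 6 gained a call, 7 lost it, 2 reversed, whether called or not, and 4, all of APOL3, moved in size.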
